A study of Homo sapiens with 12 samples.

Results

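The genes examined are the carriers and reductases through which vitamin C and glucose are handled at the cell membrane and in the cytosol: the sodium-dependent ascorbate carriers SLC23A1 and SLC23A2, the facilitative carriers SLC2A1, SLC2A3, SLC2A8, SLC2A10 and SLC2A12, the glutathione transferases GSTO1 and GSTO2, and SLC2A4RG. They were taken by symbol from the deposited count table, which holds each at 1 identifier, so 10 of 20323 genes were followed. SLC2A4RG is no carrier: it is a zinc finger protein that binds the promoter of the glucose transporter gene SLC2A4, and it is described here apart from the carriers. Of the 10, 8 passed the filter on low counts and 2 did not.

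RNA was sequenced from A549, a human lung adenocarcinoma line of epithelial origin that is known for a mutated STK11, the gene of the kinase LKB1. Cells whose genotype label is WT (called LKB1-intact here, after the series design) and cells labelled LKB1-deficient (titled con) were pretreated with phosphate-buffered saline (PBS) or with high-dose AA, which the titles name VitC. Each of these 4 groups had 3 libraries, and all of them are A549. The labels state no dose, no duration, no clone and no way in which the genotypes were produced, and nothing says that the libraries of a group are separate cultures, so a p-value here covers the spread among libraries, which may be technical.

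Ascorbate enters cells unchanged through the SLC23A carriers, which couple it to sodium. Its oxidised form, dehydroascorbate, resembles glucose and enters through several SLC2A carriers, chiefly GLUT1 (SLC2A1) and GLUT3 (SLC2A3), after which glutathione-dependent enzymes, among them the omega-class transferases GSTO1 and GSTO2, can reduce it back to ascorbate. Tumour cells such as lung adenocarcinoma cells commonly carry much GLUT1, the carrier behind their basal glucose uptake.

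Estimated counts summed to 16055534 to 20306129 per library. STK11 lay at 23.6 to 28.2 counts per 1000000 (CPM, scaled by TMM factors) in the 6 intact libraries and at 4.86 to 7.34 CPM in the 6 deficient ones (log2 -2.08 under PBS and -1.98 under AA, edgeR adjusted p = 1.48e-10 and 5.29e-13). The epithelial keratins KRT8 and KRT18 were at 693 CPM or more in every library, while EPCAM reached 11.3 CPM and CDH1 2.43 CPM. The keratin KRT19 was nearly absent, at 0.0541 to 0.5 CPM and at most 9 counts in a library. The list of 6 markers for the line, 5 epithelial ones and the mesenchymal cadherin CDH2 (24.1 to 33.4 CPM), summed to 2190 to 2280 CPM in intact PBS, 3360 to 3490 in intact AA, 1950 to 2130 in deficient PBS and 1800 to 1840 in deficient AA libraries, nearly all of it KRT8 and KRT18. In deficient cells KRT8 was at 1270 ± 46.8 CPM under PBS and 771 ± 15.2 under AA, and KRT18 at 742 ± 44.2 and 1001 ± 25.8. In intact cells both were higher under AA, KRT8 at 1947 ± 58.5 against 1420 ± 46.1 and KRT18 at 1421 ± 19.0 against 769 ± 2.60 CPM (SD, n = 3). Of the markers of other cell types CD3E was at 0, PTPRC was at most at 0.0607 CPM, and COL1A1 lay between 10.6 and 14.6 CPM. The endothelial marker CDH5 was lower under AA, at 7.69 ± 1.28 CPM in deficient PBS against 1.04 ± 0.466 in deficient AA and 9.68 ± 0.833 in intact PBS against 3.71 ± 0.623 in intact AA libraries, and the pericyte and fibroblast marker PDGFRB was at 0.766 ± 0.218 against 2.36 ± 0.566 CPM in intact cells (SD, n = 3). The 9 of them summed to 103 to 130 CPM, of which CD68, also a lysosomal protein of many cells, made up 83.2 to 111 CPM. The part of these marker levels in the results below was not tested. In bulk RNA, fewer cells of a kind and less RNA per cell cannot be told apart.

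The stretches of 250 bases upstream of the RefSeq start (GRCh38.p14, written 5′ to 3′ on the gene's strand) are shown for the 3 genes whose response to AA was larger in deficient cells, SLC2A1 (chr1:42958869-42959118, minus strand), SLC2A4RG (chr20:63739526-63739775, plus strand) and SLC2A8 (chr9:127396919-127397168, plus strand), and for GSTO2 (chr10:104268934-104269183, plus strand), which rose about equally in both genotypes. Capitals mark the GC box GGGCGG on either strand in all of them, the TATA box TATAAA in SLC2A1, and in GSTO2 the E-box CACGTG, which contains the hypoxia response core ACGTG on both strands.
SLC2A1: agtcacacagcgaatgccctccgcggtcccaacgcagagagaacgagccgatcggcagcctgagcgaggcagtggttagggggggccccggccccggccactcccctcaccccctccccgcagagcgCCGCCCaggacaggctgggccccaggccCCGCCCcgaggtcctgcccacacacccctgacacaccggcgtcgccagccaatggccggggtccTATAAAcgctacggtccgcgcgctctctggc
SLC2A4RG: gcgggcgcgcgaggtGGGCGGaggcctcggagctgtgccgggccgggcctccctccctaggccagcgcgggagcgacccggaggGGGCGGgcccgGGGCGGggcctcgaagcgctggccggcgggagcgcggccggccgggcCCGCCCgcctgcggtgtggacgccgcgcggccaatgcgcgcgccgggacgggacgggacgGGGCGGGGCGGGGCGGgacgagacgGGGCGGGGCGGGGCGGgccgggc
SLC2A8: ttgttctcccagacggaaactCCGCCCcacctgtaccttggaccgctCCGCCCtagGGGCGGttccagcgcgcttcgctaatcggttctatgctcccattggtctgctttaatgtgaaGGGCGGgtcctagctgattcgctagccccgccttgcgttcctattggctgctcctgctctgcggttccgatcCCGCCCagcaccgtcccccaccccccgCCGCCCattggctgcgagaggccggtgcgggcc
GSTO2: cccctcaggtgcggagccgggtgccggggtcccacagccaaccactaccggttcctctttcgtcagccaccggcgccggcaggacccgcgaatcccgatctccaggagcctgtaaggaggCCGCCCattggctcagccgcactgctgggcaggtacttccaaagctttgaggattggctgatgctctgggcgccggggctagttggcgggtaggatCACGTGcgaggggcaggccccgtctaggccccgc

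Of the 10 genes, 8 had such a window in the RefSeq table, and 35116 promoters were searched for comparison. SLC23A2 and SLC2A3 had none, so nothing is said of their promoters. The GC box stood 2 times in the SLC2A1 window, 10 times in that of SLC2A4RG and 6 times in that of SLC2A8, and 42.6% of all promoters hold at least 1. GSTO1 held 2, the GSTO2 window shown held 1, and SLC23A1 held none. The TATA box of SLC2A1 began 31 bases before the start, a match in GSTO1 began 216 bases before its start, and 10.7% of all promoters hold one. The E-box of GSTO2 began 34 bases before its start. It is found in 6.34% of promoters, the core ACGTG in 18.5%. Neither ACGTG nor the other hypoxia core GCGTG (32.2% of promoters) was found in the windows of SLC2A1, SLC2A4RG, SLC2A8, GSTO1 or SLC23A1. GSTO1 held 2 matches to the antioxidant response core TGACNNNGC, which 10.9% of promoters hold. The AP-1 site TGANTCA (6.57%) was in none of the 4 sequences, and the cAMP response core TGACG (21.2%) was in that of GSTO2 only. Among the windows not shown, SLC2A10 held 1 ACGTG, SLC2A12 held 1 AP-1 site and a second GSTO2 window held 1 GCGTG. A match of this kind is a description of letters and shows no binding.

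Per transcript length, which is the scale on which genes can be set against each other, the reductase GSTO1 and the carrier SLC2A1 were the most abundant of these genes in all 4 groups. In deficient cells under PBS the deposited FPKM values (fragments per kilobase and per 1000000 fragments) were 122.1 ± 3.20 for GSTO1, 49.2 ± 1.57 for SLC2A1, 30.4 ± 1.88 for SLC2A4RG, 4.99 ± 0.563 for SLC2A8, 3.79 ± 0.244 for SLC23A2, 1.92 ± 0.270 for GSTO2, 0.359 ± 0.0363 for SLC2A3 and 0.0527 ± 0.000577 for SLC23A1 (SD, n = 3 each). No 2 neighbours in this order overlapped between libraries. In intact cells under PBS the order was the same, and there the lowest SLC2A3 library, at 0.160 FPKM, overlapped the highest SLC23A1 library, at 0.190. Under AA the middle of the order closed up. In deficient cells SLC2A3 (2.55 to 3.06 FPKM) and SLC23A2 (2.43 to 2.89) overlapped, both below GSTO2 (3.67 to 3.86). In intact cells SLC2A3 (3.16 to 3.67) overlapped GSTO2 (2.79 to 3.52), which overlapped SLC23A2 (2.36 to 2.87).

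**Figure D1:**
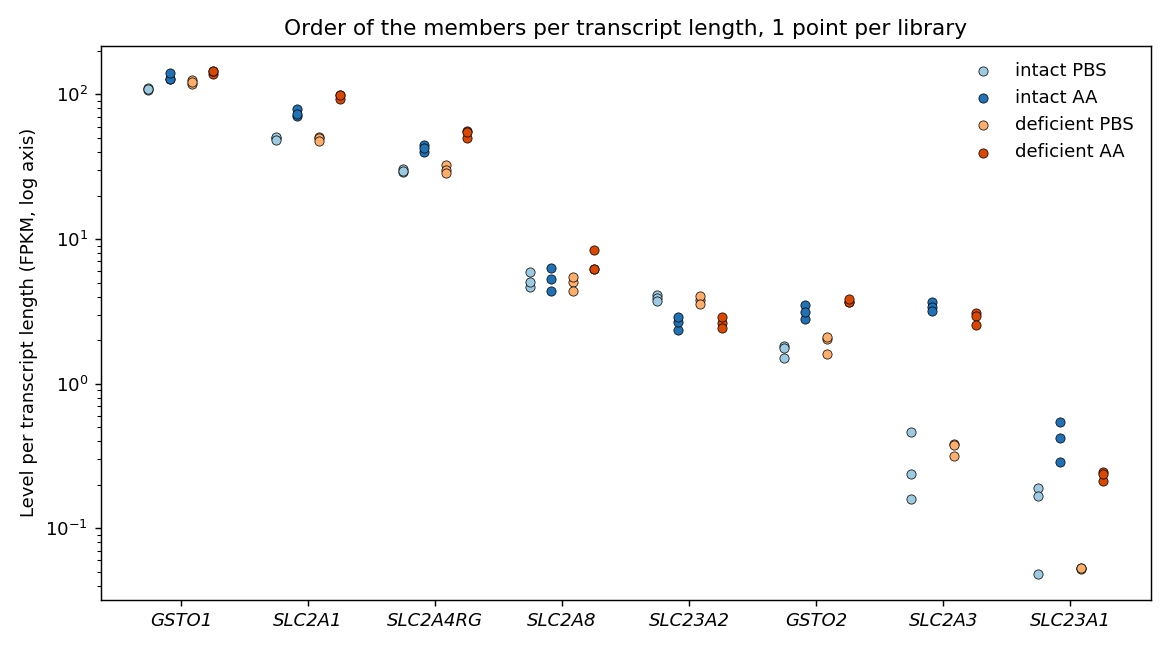
Deposited FPKM values (log axis) of the 8 tested genes, 1 point per library, coloured by group. GSTO1, SLC2A1 and SLC2A4RG lie at 28.82 FPKM or more in every library, and SLC2A3 moves from at most 0.465 FPKM under PBS to at least 2.546 FPKM under AA.

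Under AA, 7 of the 8 tested genes rose and 1 fell in deficient cells, where 37.0% of all 12718 tested genes rose and 37.4% fell (quasi-likelihood test of edgeR, with p adjusted after Benjamini and Hochberg and called under 0.05). In intact cells 6 rose and 1 fell, beside 34.5% and 35.2% of all genes. The median log2 change of the 8 was 0.84 in deficient and 0.56 in intact cells, and over all tested genes it was 0.01 in each. SLC23A1 reached the cutoff of the filter in 3 intact AA libraries, in 1 deficient AA library and in no PBS library. It thus passed through the intact AA group, and its rise in intact cells was bound to appear in such a count. The counts and medians above include it, and 2 of the 10 genes were too low to be tested. The ascorbate carrier SLC23A2 was the gene that fell, and SLC2A8 was the gene without a call in intact cells. With a trend of the AA effect on transcript length removed, as described under SLC23A2, 5 genes rose and 1 fell in each genotype. Of all tested genes, 34.4% were higher and 35.8% lower in deficient cells on that scale, and 31.7% and 33.2% in intact cells. In deficient cells the gene that fell was then GSTO1, and SLC23A2 and SLC2A8 had no call. In intact cells it was still SLC23A2, and GSTO1 and SLC2A8 had no call.

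**Figure D2:**
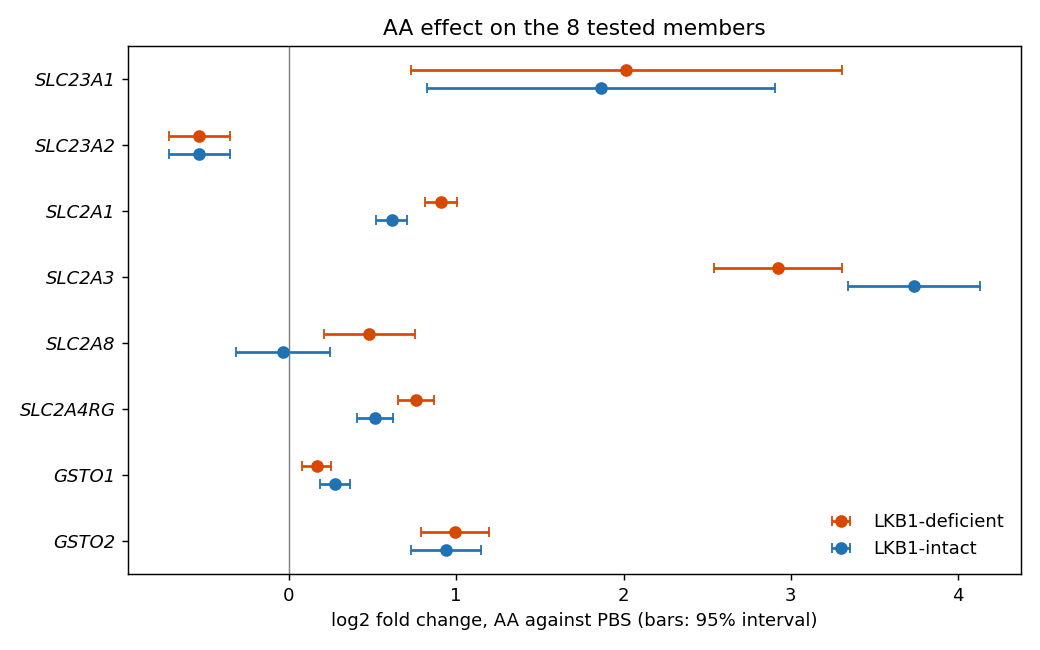
log2 fold change of AA against PBS with its 95% interval for each tested gene, in deficient and in intact cells. SLC2A3 and SLC23A1 show the widest intervals and the largest rises, and SLC23A2 lies at -0.54 in both genotypes. SLC23A1 passed the filter on low counts only through the intact AA group.

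SLC23A2 encodes SVCT2, the ascorbate carrier found in most tissues (chromosome 20, 4852356 to 5010293, minus strand; positions of genes are those of GENCODE release 29 on GRCh38, matched by identifier). Its libraries stood at 24.27, 28.48 and 25.02 CPM in deficient cells under PBS and at 17.8, 16.4 and 19.5 CPM under AA. In intact cells they stood at 28.6, 26.8 and 25.1 CPM under PBS and at 16.6, 18.6 and 20.2 CPM under AA. Every AA library lay below every PBS library. The log2 change was -0.54 in deficient cells (SE 0.0875, edgeR adjusted p = 1.06e-05) and -0.54 in intact cells (SE 0.0867, adjusted p = 1.22e-05). The difference between these effects had a 95% interval of -0.25 to 0.25 and was not called.

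Transcript length moved with the AA effect over all genes, longer transcripts lying lower and shorter ones higher under AA. SLC23A2 is long, 1.39 log2 units above the median transcript, and the trend at its length was -0.43 log2 in deficient and -0.33 in intact cells. With the trend removed by offsets, its change was -0.11 in deficient cells, where the call was lost (edgeR adjusted p = 0.281), and -0.21 in intact cells (adjusted p = 0.0434). This alternative was added after the data were seen.

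SLC23A1 encodes SVCT1, the ascorbate carrier of absorbing epithelia such as gut and kidney (chromosome 5, 139367196 to 139384553, minus strand). It was close to the limit of detection. Counts were 2, 2 and 2 in deficient PBS, 10, 10 and 10 in deficient AA, 7, 3 and 2 in intact PBS, and 18, 12 and 18 in intact AA libraries. A count of 3, the level taken as the floor, corresponds to 0.144 to 0.189 CPM. The depth-scaled ratio of AA to PBS counts was 4.21 in deficient cells (95% exact interval 1.73 to 12.4) and 3.75 in intact cells (1.96 to 7.75); these intervals cover counting error only. The edgeR calls (adjusted p = 0.00597 and 0.00232) rest on these few reads. SLC23A1 also passed the filter on low counts only through the intact AA group. Its adjusted p in intact cells is therefore no independent evidence of a rise there. In intact cells the log2 change of 1.87 became 2.58 without intact PBS replicate 1, the library with 7 counts, and 1.53 without replicate 3 of that group, and it was 0.32 with limma on unfiltered log2(FPKM + 1) values, a scale that compresses low levels. In deficient cells that scale gave 0.23 in place of 2.02. The FPKM values of SLC23A1, 0.542 or less, lay below those of SLC23A2 in every library.

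SLC2A1, the basal glucose carrier GLUT1 and a carrier of dehydroascorbate, rose in both genotypes, and more in deficient cells (chromosome 1, 42925375 to 42959176, minus strand). Its libraries were at 121.5, 124.6 and 115.6 CPM in deficient PBS, 234.5, 212.9 and 231.8 in deficient AA, 114.1, 124 and 120.6 in intact PBS, and 193.1, 175.2 and 181.1 CPM in intact AA. The PBS libraries of the genotypes were interleaved, while all deficient AA libraries lay above all intact AA ones. The rise was 1.88-fold in deficient cells (log2 0.91, SE 0.0450, edgeR adjusted p = 6.87e-14) and 1.53-fold in intact cells (log2 0.61, SE 0.0454, adjusted p = 1.06e-10). The effects differed by 0.30 log2 (SE 0.0639, adjusted p = 0.000675).

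SLC2A3 encodes GLUT3, a high-affinity glucose and dehydroascorbate carrier best known from neurons (chromosome 12, 7919230 to 7936275, minus strand). Among the tested genes it had the largest change in both genotypes. Counts went from 24, 24 and 20 under PBS to 238, 198 and 180 under AA in deficient cells, and from 23, 17 and 11 to 260, 234 and 237 in intact cells, with no overlap in either. As levels this was 1.39 ± 0.136 against 10.6 ± 1.02 CPM in deficient and 0.995 ± 0.420 against 13.1 ± 0.961 CPM in intact cells (SD, n = 3). The fold changes were 7.59 in deficient cells (log2 2.92, SE 0.184, edgeR adjusted p = 3.85e-12) and 13.3 in intact cells (log2 3.74, SE 0.190, adjusted p = 2.15e-13). On the log2(FPKM + 1) scale, which compresses low values, these changes were 1.498 and 1.779. The near-identical gene SLC2A14, with which reads can be shared, had no counts under PBS and at most 4 in an AA library.

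The AA effect on SLC2A3 was smaller in deficient than in intact cells by 0.81 log2 (SE 0.303, edgeR adjusted p = 0.034). This call was not stable: the edgeR adjusted p rose to 0.0781 on leaving out intact PBS replicate 2, to 0.139 for replicate 3 of that group, 0.0634 for intact AA replicate 1, 0.0778 and 0.0732 for deficient PBS replicates 1 and 2, and 0.0611 for deficient AA replicate 3. With limma on FPKM values it was 0.15 to 0.217.

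SLC2A8, or GLUT8, a carrier held mainly in intracellular membranes, was called in deficient cells (chromosome 9, 127397138 to 127408424, plus strand). Its libraries read 9.25, 9.29 and 7.07 CPM in deficient PBS, 11.3, 11.1 and 13.3 in deficient AA, 8.94, 8.43 and 8.71 in intact PBS, and 8.61, 6.89 and 9.83 CPM in intact AA. The deficient groups did not overlap, and the intact ones did. The change was 0.48 log2 in deficient cells (SE 0.131, edgeR adjusted p = 0.00245), and 0.26 with the length trend removed, where the call was lost (adjusted p = 0.0705). In intact cells it was -0.04 (95% interval -0.32 to 0.24, not called). The difference of 0.52 log2 between the effects (SE 0.189, adjusted p = 0.0301) was not stable either. On leaving out a library its edgeR adjusted p was 0.059 for intact PBS replicate 1, 0.0523 for replicate 3 of that group, 0.0899 for intact AA replicate 2, 0.0928 for deficient PBS replicate 3 and 0.0856 for deficient AA replicate 3, and with limma on FPKM values it was 0.134 to 0.223.

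SLC2A10 and SLC2A12, the carriers GLUT10 and GLUT12, were at or near nothing. SLC2A10 was listed at 0 in all 12 libraries, which allows up to 3 counts, or 0.144 to 0.189 CPM, in each. SLC2A12 had estimated counts of 1.54 in 1 intact PBS library and of 1.72 and 3.24 in 2 intact AA libraries, and 0 in the other libraries, the 6 deficient ones included. No change can be given for either at this depth.

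**Figure D3:**
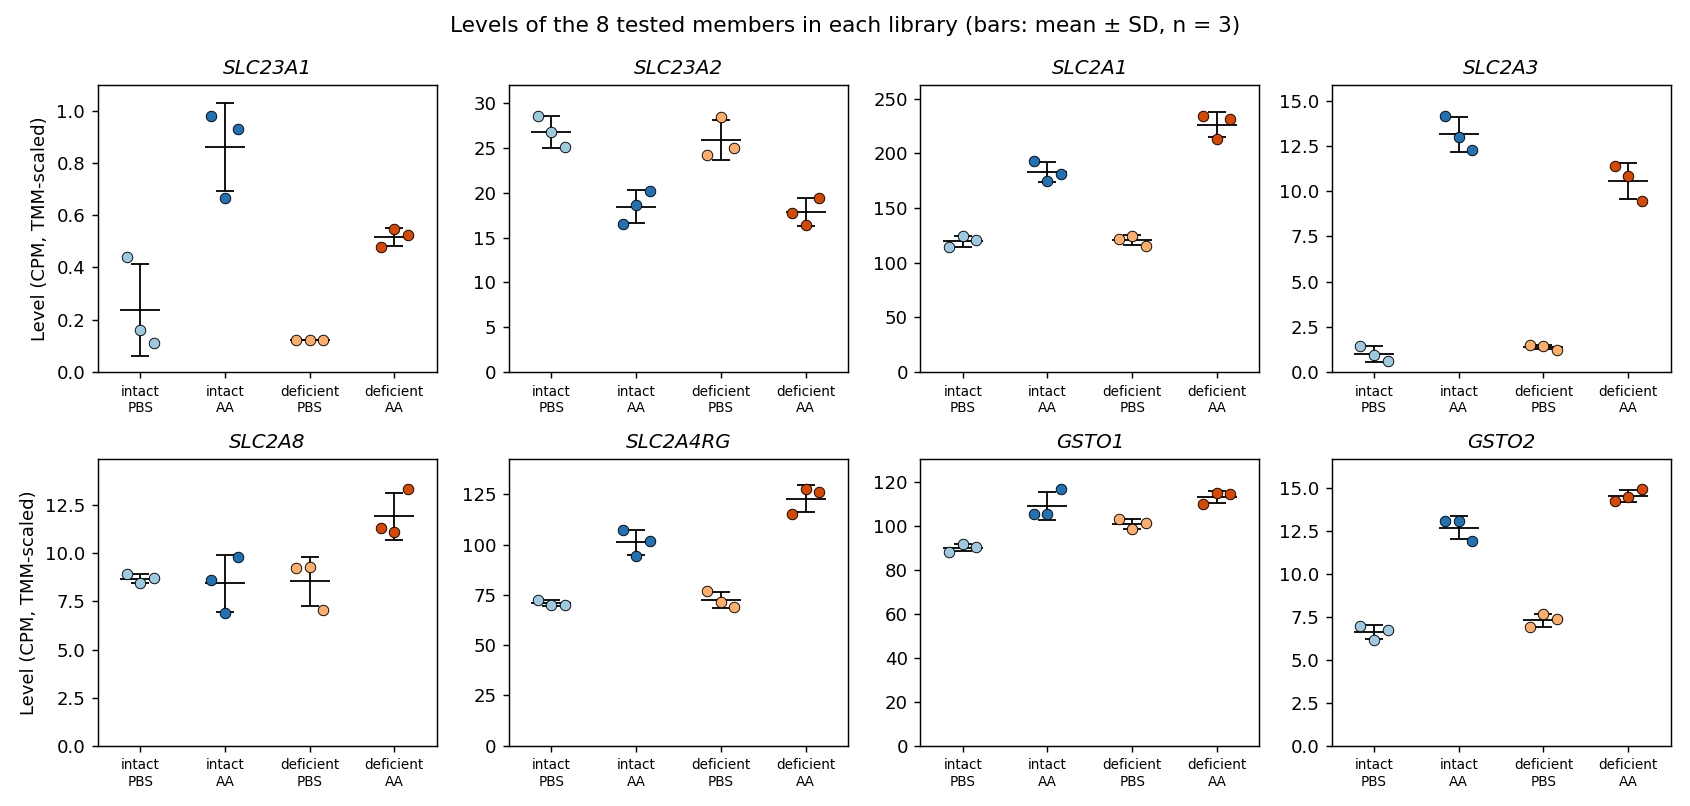
TMM-scaled CPM of each tested gene in the 12 libraries by group, with mean and SD (n = 3). SLC2A1 and SLC2A4RG share a shape, equal under PBS and higher in deficient than in intact cells under AA, while SLC23A2 is lower under AA in both genotypes.

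Over the 14 SLC2A carrier genes of the table, of which 7 were tested, SLC2A1 made up 62.65 to 64.05% of the summed FPKM in deficient PBS and 76.43 to 79.46% in deficient AA libraries. In intact cells its share was 62.58 to 65.88% under PBS and 71.74 to 71.95% under AA. The ratio of SLC2A1 to SLC23A2 FPKM, glucose and dehydroascorbate carrier over ascorbate carrier, was 12.3 to 13.4 in deficient and 12.2 to 13 in intact libraries under PBS. Under AA it was 34.2 to 38.2 and 25.5 to 33.5, with no overlap between any AA and any PBS library. The ratio of SLC2A1 to SLC2A3 fell from 132 to 150 in deficient PBS libraries to 31.7 to 38.8 under AA, and from 107 to 304 in intact PBS libraries to 20.9 to 23.1. These ratios are descriptions with no test, and the length trend given for SLC23A2 acts on the ratio with it. It acts on the ratio with SLC2A3 too. The trend was -0.185 log2 in deficient and -0.132 in intact cells at the length of SLC2A3, against 0.0234 and 0.0144 for SLC2A1.

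**Figure D4:**
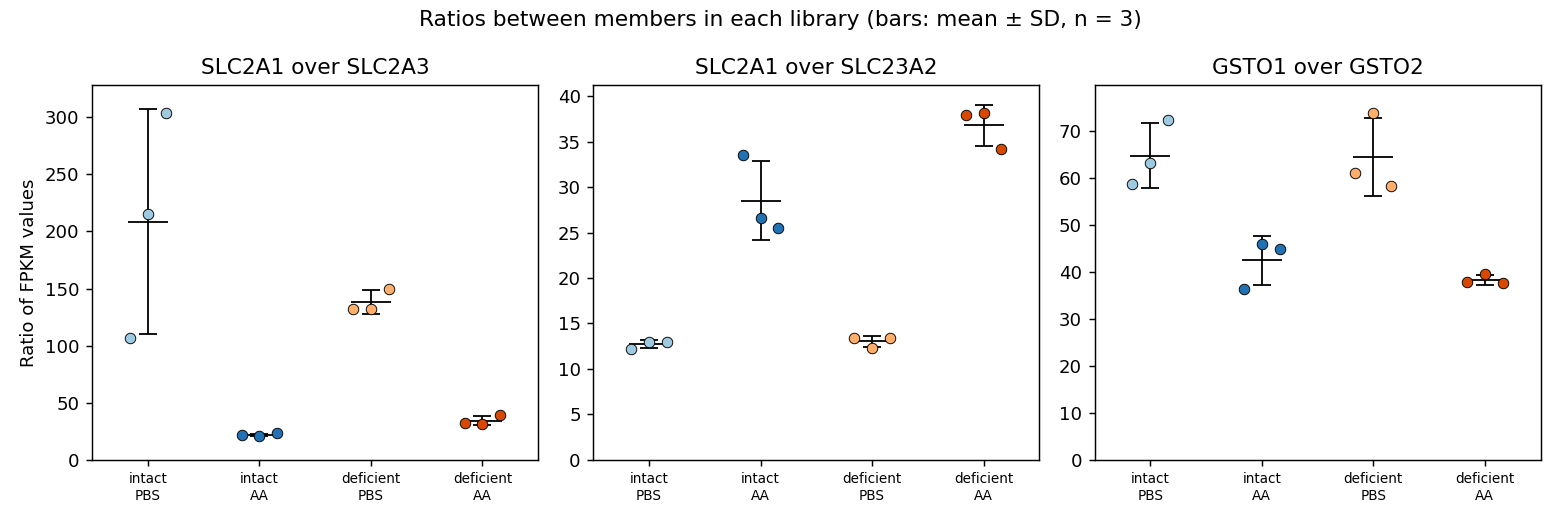
Ratio of FPKM values between pairs of genes in each library, with mean and SD (n = 3). SLC2A1 over SLC23A2 is higher and SLC2A1 over SLC2A3 and GSTO1 over GSTO2 are lower in every AA library than in every PBS library. The trend on transcript length acts on each of these ratios.

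GSTO1 and GSTO2 are neighbours on chromosome 10 (104235356 to 104267459 and 104268873 to 104304945, both plus strand). GSTO2, described as the more active dehydroascorbate reductase, rose about equally in both genotypes. Its libraries were at 6.93, 7.65 and 7.38 CPM in deficient PBS, 14.2, 14.5 and 14.9 in deficient AA, 6.98, 6.16 and 6.74 in intact PBS and 13.1, 13.1 and 11.9 CPM in intact AA. No AA library overlapped a PBS library. The rise was 1.99-fold in deficient (log2 0.99, SE 0.0986, edgeR adjusted p = 7.66e-09) and 1.92-fold in intact cells (log2 0.94, SE 0.101, adjusted p = 3.82e-08), and the difference had a 95% interval of -0.25 to 0.35.

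GSTO1, the abundant omega-class enzyme, changed little. It went from 103.1, 98.6 and 101.3 to 110.3, 115 and 114.7 CPM in deficient cells and from 88.4, 91.8 and 90.5 to 105.7, 105.5 and 116.7 CPM in intact cells. The groups did not overlap in either genotype. As fitted it rose by 0.17 log2 in deficient (SE 0.0420, edgeR adjusted p = 0.00129) and by 0.28 in intact cells (SE 0.0425, adjusted p = 6.29e-06). This direction did not hold against transcript length. GSTO1 is short, 1.69 log2 units below the median, and the trend at its length was 0.425 and 0.357. With the trend removed it changed by -0.26 in deficient cells (adjusted p = 1.34e-06) and by -0.08 in intact cells (adjusted p = 0.0634), and the difference of -0.18 between the effects was then called (adjusted p = 0.00895). The FPKM ratio of GSTO1 to GSTO2 was 64.3 ± 8.32 in deficient PBS, 64.6 ± 6.90 in intact PBS and 42.4 ± 5.22 in intact AA cells (SD, n = 3), and it lay between 37.5 and 39.5 in the 3 deficient AA libraries. The length trend acts on this ratio too. At the length of GSTO2 the trend was -0.193 log2 in deficient and -0.137 in intact cells.

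**Figure D5:**
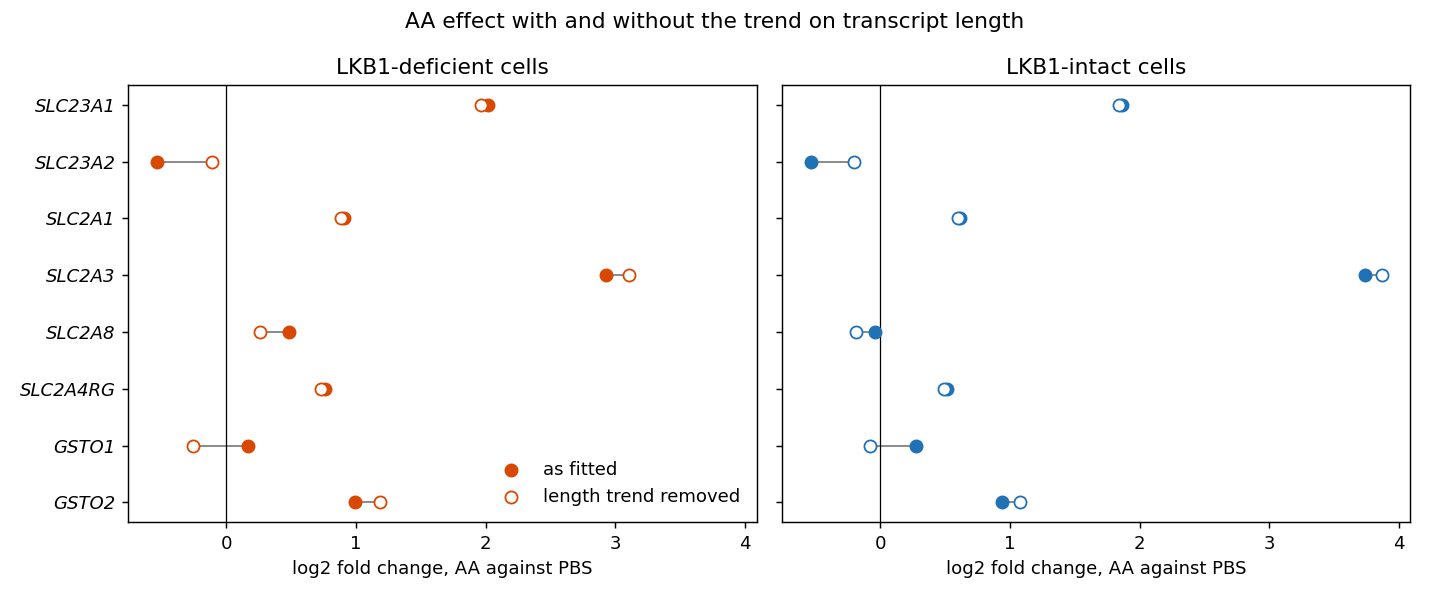
log2 fold change of AA against PBS as fitted (filled) and with the trend on transcript length removed (open) in deficient and intact cells. The long SLC23A2 moves from -0.54 to -0.11 and the short GSTO1 from 0.17 to -0.26 in deficient cells, while SLC2A1 moves from 0.91 to 0.89 and SLC2A4RG from 0.76 to 0.73.

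SLC2A4RG (chromosome 20, 63739861 to 63743505, plus strand) read 77.0, 71.3 and 68.9 CPM in deficient PBS, 115, 127.4 and 126.1 in deficient AA, 72.5, 69.8 and 70.2 in intact PBS and 107, 94.4 and 101.9 CPM in intact AA libraries. As for SLC2A1, the PBS libraries overlapped between genotypes and the AA libraries did not. It rose 1.70-fold in deficient (log2 0.76, SE 0.0517, edgeR adjusted p = 1.43e-11) and 1.43-fold in intact cells (log2 0.51, SE 0.0524, adjusted p = 1.76e-08), a difference of 0.25 log2 (SE 0.0737, adjusted p = 0.0088). Its estimated counts had a fraction in all 12 libraries, whose origin was not tested. SLC2A4, the carrier gene it is named for, was below the filter.

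For the difference in AA effect between genotypes, 3 of the 8 tested genes were higher in deficient cells (SLC2A1, SLC2A4RG and SLC2A8) and 1 was lower (SLC2A3), where 21.6% of all genes were higher and 23.0% lower. SLC23A1, SLC23A2, GSTO1 and GSTO2 were not called, with 95% intervals of -1.39 to 1.70 for SLC23A1 and -0.24 to 0.01 for GSTO1. Without intact PBS replicate 3 or deficient AA replicate 3 the count of called genes was 2.

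The genotypes were then compared at 1 treatment. These comparisons reuse the libraries above. Under PBS, edgeR called none of the 8, where 0.0550% of all genes were higher and 0.220% lower in deficient cells. At an unadjusted p under 0.05 there was 1, GSTO1 (log2 0.16, SE 0.0432, edgeR adjusted p = 0.151), whose deficient libraries lay above the intact ones. DESeq2 and limma called none either. For SLC2A1 the 95% interval of the PBS difference was -0.09 to 0.11 and for SLC23A2 -0.22 to 0.13, while for SLC2A3 it was -0.07 to 1.07 and for SLC23A1 -2.40 to 0.64.

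Under AA, SLC2A1 (log2 0.31, edgeR adjusted p = 2.69e-06), SLC2A4RG (0.28, adjusted p = 4.62e-05) and SLC2A8 (0.49, adjusted p = 0.00244) were higher in deficient than in intact cells and SLC2A3 was lower (-0.31, adjusted p = 0.0447), beside 28.7% of all genes higher and 30.3% lower. For SLC2A3 the call did not survive leaving out intact AA replicate 1 (edgeR adjusted p = 0.168) or 2 (0.081), or deficient AA replicate 2 (0.0771) or 3 (0.181). It was also lost with limma on FPKM values (0.123 to 0.408), with DESeq2 (0.0675), with library size only (0.098) and with the length trend removed (0.0995). SLC2A8 lost its call with limma on FPKM values (0.0558 to 0.105). GSTO2 was not called (log2 0.20, 95% interval 0.01 to 0.38, adjusted p = 0.0678), though its AA libraries did not overlap. It was called with library size only (log2 0.25, edgeR adjusted p = 0.0206) and with the length trend removed (0.26, adjusted p = 0.0168). GSTO1 was not called either (log2 0.05, adjusted p = 0.303). It was called as higher with library size only (0.11, adjusted p = 0.0292), with limma on FPKM values (0.11, 0.0339 to 0.0479) and without intact AA replicate 3 (0.10, edgeR adjusted p = 0.0382), and stood at -0.03 with the length trend removed.

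Other genes of the pathway were taken from lists that were chosen with earlier results of these data known. As fitted, 37.0% of all genes rose and 37.4% fell in deficient cells, and 34.5% rose and 35.2% fell in intact cells. Of 16 genes for reduction of ascorbate and dehydroascorbate, 7 rose and 6 fell in deficient and 9 rose and 4 fell in intact cells, with median log2 changes of 0.07 and 0.11. TXNRD1, a thioredoxin reductase that can reduce dehydroascorbate, fell by 0.62 in deficient and by 0.82 in intact cells (log2, edgeR adjusted p = 3.51e-15 and 5.97e-17). CYB5B, an outer mitochondrial membrane cytochrome b5, rose by 0.95 and 0.63. With the length trend removed, 2 of the 16 rose and 9 fell in deficient cells and 3 rose and 4 fell in intact cells, with medians of -0.17 and -0.03. Among other glutathione transferases 8 of 12 tested rose in deficient and 11 of 12 in intact cells (medians 0.31 and 0.54). The shares of all genes that rose were 37.0% and 34.5%. The transferases that rose included GSTP1 (0.44 in deficient and 0.53 in intact cells), GSTK1 (0.57 and 0.50) and GSTM1 (0.32 and 0.69), whose reads may be shared with close copies. These counts moved with transcript length: with its trend removed 4 rose and 3 fell in deficient cells (median -0.03) and 9 rose and 1 fell in intact cells (median 0.27), beside 34.4% higher and 35.8% lower over all genes in deficient and 31.7% and 33.2% in intact cells. GSTP1 was then at -0.0011 in deficient and at 0.15 in intact cells, GSTK1 at 0.19 in deficient cells and GSTM1 at 0.42 in intact cells.

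Of 16 other sugar carriers 6 were tested, of which 2 rose and 2 fell in deficient and 3 rose and 2 fell in intact cells. Over all genes 37.0% rose and 37.4% fell in deficient cells, and 34.5% and 35.2% in intact cells. With the length trend removed 3 of the 6 rose and 2 fell in each genotype. Beside them 34.4% of all genes were higher and 35.8% lower in deficient cells, and 31.7% and 33.2% in intact cells. SLC5A3, a sodium-coupled myo-inositol carrier, fell by 2.05 and 1.14 log2 (edgeR adjusted p = 1.96e-19 and 3.06e-15) and SLC50A1, a SWEET-type carrier, rose by 0.97 and 0.53. With the length trend removed SLC50A1 was at 0.61 and 0.27, and SLC5A3 at -0.64 in intact cells. SLC2A6, or GLUT6, singled out after its values were seen, was the SLC2A carrier next in level to SLC2A1. It went from 16.6 ± 0.803 to 9.14 ± 1.14 FPKM in deficient and from 16.8 ± 1.23 to 10.8 ± 0.724 FPKM in intact cells (SD, n = 3), a log2 change of -0.83 and -0.63 (edgeR adjusted p = 3.89e-08 and 2.04e-06).

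Among 15 genes of glucose carrier trafficking and turnover, 7 rose and 4 fell in deficient and 9 rose and 3 fell in intact cells (medians 0.06 and 0.16). As fitted, 37.0% of all genes rose and 37.4% fell in deficient cells, and 34.5% and 35.2% in intact cells. Once the length trend was removed, 9 of the 15 rose and 3 fell in deficient and 10 rose and 3 fell in intact cells (median 0.23 in each). Over all genes 34.4% were then higher and 35.8% lower in deficient and 31.7% and 33.2% in intact cells. TXNIP and ARRDC4 are arrestin-like proteins that promote removal of GLUT1 from the surface. TXNIP rose by 1.71 log2 in deficient and by 0.29 in intact cells, a difference of 1.42 (SE 0.0891, edgeR adjusted p = 3.42e-11). ARRDC4 rose by 0.49 in deficient cells and fell by 0.83 in intact cells, a difference of 1.32 (adjusted p = 3.69e-08). VPS29, a subunit of the retromer that recycles GLUT1, rose by 0.76 and 0.54, and by 0.37 and 0.23 with the length trend removed. Of 9 tested genes for hexose phosphorylation and glucose release, 4 rose and 4 fell in deficient and 6 rose and 1 fell in intact cells. The as-fitted shares of all genes were again 37.0% and 37.4% in deficient cells and 34.5% and 35.2% in intact cells. The hexokinase HK1 fell by 0.41 log2 in deficient cells (edgeR adjusted p = 3.07e-10) and rose by 0.09 in intact cells (adjusted p = 0.0244). HKDC1, a related kinase, rose by 0.32 in deficient cells and was not called in intact cells (-0.06, edgeR adjusted p = 0.086). Under PBS it was already higher in deficient than in intact cells (0.14, edgeR adjusted p = 0.0331). The glucose-6-phosphatase G6PC3 rose in both genotypes, by 0.26 in deficient and by 0.47 in intact cells, as did the glucose-6-phosphate carrier SLC37A4, by 0.59 and 0.47. With the length trend removed, HK1 stood at -0.25 and HKDC1 at 0.49 in deficient cells and G6PC3 at 0.30 in intact cells, and 3 of the 9 rose and 3 fell in deficient cells (median 0.0043), 5 and 1 in intact cells.

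The genes whose pattern over the 4 group means was most like that of a member were sought among abundant genes (mean log2 CPM of at least 3), as a description over 12 libraries. For SLC2A3 these were FOSB and NR4A2, with a root mean square difference of 0.164 and 0.272 log2 on a range of 3.65. FOSB went from 3.20 to 28.6 CPM in deficient and from 3.09 to 35.1 CPM in intact cells. For SLC2A1 they were RFXANK (0.0110) and SCLT1 (0.0113), for SLC2A4RG CPSF3 (0.00981) and COMTD1 (0.0139), and for SLC2A8 CTDSP1 (0.00786) and PICALM (0.0102). Among the genes most like SLC23A2 was P3H1 (0.00871), a collagen prolyl hydroxylase of the class that uses ascorbate. GSTO2 was nearest to PTGR1 (0.0194) and ROGDI (0.0235), GSTO1 to TOGARAM1 (0.0172) and NDUFA5 (0.0252), and SLC23A1 to CCN2 (0.143) and ISG15 (0.160).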

How the data were processed

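RNA-seq libraries of A549 cells fell into 4 groups of 3 by genotype and treatment labels. The submitters' processing notes name RSEM, StringTie 1.3.1, HISAT2 2.1.0, fastp 0.18.0 and Bowtie2 2.2.8. Neither what each did nor the genome build or strand setting is given in the sources used here. Deposited were the authors' estimated counts, unscaled and 10.9 to 11.5% of them not whole, and FPKM values, scaled by the authors to length and depth.

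Counts were rounded and filtered by group (minimum count 10), which left 12718 genes. All 12 libraries entered 1 quasi-likelihood fit in edgeR 4.0.16 under R 4.3.3, by group alone, with TMM factors of 0.987 to 1.033, and p-values were adjusted over all tested genes. Standard errors were derived from each log2 fold change and its F statistic, and 95% intervals used the t distribution with the model's degrees of freedom. Gene symbols with several identifiers used the one with the highest total. The length trend was a loess fit, per library, of centred log2 CPM on relative transcript length, taken from the ratio of counts to FPKM. Alternatives used DESeq2 1.42.0, limma 3.58.1 on log2(FPKM + 1) and log2(FPKM + 0.1), other factors and filters, a replicate block, fits to 6 libraries, and fits without 1 library. The code was tested on simulated data. Within groups, chi-square over its degrees of freedom was 2.01 to 4.26, so libraries differed by more than sampling noise. The removal of the length trend was chosen after seeing the data.

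The members and the gene lists were chosen with earlier results of these data known. Named are all 10 members, STK11, up to 2 list genes of smallest p per AA comparison, and the 2 genes most like each tested member, of which 1 is not reported here. Members were called at an adjusted p under 0.05.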

Additional observations from a re-analysis of the deposited data

Results flagged for a closer look

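The AA effect of 4 of the 8 tested members differed between deficient and intact cells by the test of the difference itself. For the same difference 21.6% of all tested genes were higher and 23.0% lower, so a count of this size is near the share over all genes. SLC2A1 differed by 0.30 log2 and SLC2A4RG by 0.25, and both calls held without any 1 library (ranges 0.26 to 0.34 and 0.20 to 0.29, largest edgeR adjusted p = 0.00392 and 0.031). SLC2A8 differed by 0.52 log2 (0.39 to 0.64 without 1 library, largest edgeR adjusted p = 0.0928) and SLC2A3 by -0.81 (-1.16 to -0.56, largest edgeR adjusted p = 0.139). The last 2 calls were lost without the libraries named with them.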

How the results depend on the processing

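The count of called members was the same or within 1.5 times under each alternative for the 4 comparisons between 2 groups: 6 to 8 in deficient cells under AA, 6 or 7 in intact cells, 3 to 5 for the genotypes under AA and 0 under PBS, though with the length trend removed the called genes and the direction of GSTO1 differed. For the difference in AA effect it was 4, rose to 5 with the length trend removed, where GSTO1 was added, and was 2 with limma on log2(FPKM + 1), with or without a filter, and on log2(FPKM + 0.1); without 1 library it was 2 to 4, the lower value without intact PBS replicate 3 or deficient AA replicate 3. Of 1314 values of named genes under an alternative, 1229 kept direction and side of the threshold, 35 lost a call, 9 gained one and 41 changed sign.

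With the length trend removed, GSTO1 changed sign in deficient cells (-0.26), in intact cells (-0.082) and between the genotypes under AA (-0.032), and GSTP1 in deficient cells (-0.0011). The other changes of sign were in values that were not called. The SLC23A2 difference in AA effect was 0.0018 with the replicate block, 0.054 with library size only, 0.00059 with DESeq2, 0.0081 with no low-count filter, 0.00043 with a minimum count of 30, 0.044 and 0.055 with limma on FPKM, 0.098 with the length trend removed, and -0.073 to 0.076 without 1 library. Its difference between genotypes was 0.0086, 0.0074, 0.010 and 0.079 under AA with library size only, limma on FPKM with a pseudocount of 1 or 0.1, and the length trend removed (-0.12 to 0.024 without 1 library), and -0.12 to 0.00091 under PBS without 1 library. SLC2A1 under PBS was -0.0148 and -0.0151 with limma on FPKM and -0.020 to 0.042 without 1 library, SLC2A4RG -0.014 to 0.068 and SLC2A8 -0.088 to 0.096. SLC2A8 in intact cells was 0.025 with upper quartile factors, 0.021 and 0.024 with limma, and -0.16 to 0.086 without 1 library. The SLC23A1 difference was -0.093 with unfiltered limma and -0.57 to 0.48 without 1 library.

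Libraries with the same replicate number did not deviate together (mean correlations -0.0939 to 0.0537), and at most 2 of the 6 libraries of a comparison correlated best with their own number. With the replicate block 8, 7, 4, 4 and 0 members were called in deficient cells, in intact cells, for the difference, and for the genotypes under AA and PBS, as without it. Over all genes, the genotypes under PBS gave 35 calls with edgeR, 54 with DESeq2, 111 with no low-count filter, 4 or 5 with limma on FPKM and 6 to 28 without 1 library. With library size only, calls for the difference were 57.9% higher against 48.4% with TMM. Depth limits SLC23A1, SLC2A10 and SLC2A12.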

Other observations

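Of 9 genes listed beside SLC23A2, mostly carriers of other vitamins, 6 were tested, and 5 of them fell in each genotype (medians -0.34 and -0.33 log2), where 37.4% of all genes fell in deficient and 35.2% in intact cells. With the length trend removed 4 of the 6 fell in each (medians -0.25 and -0.37), beside 35.8% and 33.2% of all genes. SLC5A6, the sodium-dependent carrier of biotin and pantothenate, fell by 1.01 log2 in deficient and by 0.86 in intact cells (edgeR adjusted p = 8.6e-11 and 1.58e-09). SLC46A1, the proton-coupled folate carrier, fell by 0.36 and 0.28, and both of its calls were lost with the length trend removed (-0.05 and -0.06, adjusted p = 0.365 and 0.303).

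Of 7 genes related to SLC2A4RG, 5 were tested. In deficient cells 2 fell, the paralogue ZNF704 by 1.44 log2 and the deacetylase HDAC5 by 0.35. In intact cells 4 fell and 1 rose, among them ZNF704 (by 1.00) and the transcription factor MEF2A (by 0.27). HDAC5, which rose by 0.29, was the one that rose. Over all genes 37.0% rose and 37.4% fell in deficient cells, and 34.5% rose and 35.2% fell in intact cells. With the length trend removed 3 rose and 2 fell in deficient cells, beside 34.4% of all genes higher and 35.8% lower. On the same scale 1 rose and 2 fell in intact cells, beside 31.7% and 33.2%. ZNF704 was then at -0.92 and -0.60, HDAC5 at -0.22 in deficient cells and MEF2A at -0.14 in intact cells. With limma on unfiltered log2(FPKM + 1) values, the ZNF704 change in deficient cells was -0.13 and not called (adjusted p = 0.605).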
